A study of Mus musculus with 19 samples.

Results

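The genes described here encode the proteins of the mitochondrial ribosome. They were taken by name, as the rows of the table whose symbol is Mrpl or Mrps followed by a digit, without names that hold -ps, and with a normalized count of at least 10 in at least 4 of the 19 mice. The rule gave 77 genes of the 20408 in the table, 48 named Mrpl (large subunit) and 29 named Mrps (small subunit). The name pattern matched 80 rows, of which 3 were -ps names and none of the other 77 failed the filter. The 3 rows left out, Mrpl23-ps1, Mrpl48-ps and Mrps36-ps1, reached at most 11.2, 12.8 and 2.77 normalized counts in any mouse.

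RNA-Seq was done on the suprarenal abdominal aorta (SRA) of male ApoE-/- mice. The labels give an age of 8 weeks, which in the paper is the age at the start of tamoxifen, before infusion. Such mice lack apolipoprotein E and are prone to aortic aneurysm when angiotensin II (Ang II) is infused. IKKβ is the kinase that activates the canonical NF-κB pathway, and its gene Ikbkb was deleted in smooth muscle. IKKβ-/- mice were SMA-CreERT2 Ikkβ Flox/Flox ApoE-/-, and the IKKβ+/+ mice, labelled wild-type, were SMA-CreERT2 ApoE-/- littermates, so that all 4 groups lacked ApoE, carried the tamoxifen-activated Cre driven by the Acta2 promoter and had been given tamoxifen. Mice received saline (5 IKKβ+/+ and 4 IKKβ-/-) or Ang II (5 IKKβ+/+ and 5 IKKβ-/-) from osmotic pumps for 24 h, at a dose that the labels give as 500 to 1000 ng/min/kg. For the RNA-Seq mice the paper states a dose of 1000 ng/min/kg. The aortas were not separated into cell types, so deletion by this Cre leaves Ikbkb intact in the other cells of the wall.

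Mitochondria translate only the few mRNAs of their own DNA, which encode subunits of the respiratory chain and of ATP synthase. Their ribosome carries rRNA made inside the organelle, whereas every one of its proteins is encoded in the nucleus, translated in the cytosol and imported. Part of these proteins have homologues in bacterial ribosomes, and the others arose in the mitochondrial lineage. In the unified nomenclature the former bear the prefix u or b and the latter the prefix m.

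By that naming 46 of the 77 genes encode proteins with a bacterial homologue and 30 encode mitochondria-specific ones. The remaining member, Mrps36, was named as a ribosomal protein but is now known as a subunit of the 2-oxoglutarate dehydrogenase complex. Mrps30 and Mrps18a bear small subunit names, but their proteins sit in the large subunit. The genes lay on 17 chromosomes, most on chromosome 11 (11 genes) and chromosome 17 (8 genes).

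The size of the total read count limits how precisely such genes are measured. Between 11382573 and 19906694 reads per mouse were recovered from the deposited values, and the 77 genes held 0.119% to 0.187% of them. Ikbkb, which checks the genotype labels, had normalized counts of 594 to 791 in saline-infused and 685 to 779 in Ang II-treated IKKβ+/+ mice, against 439 to 586 and 430.2 to 672 in IKKβ-/- mice, with no overlap between the genotypes under either treatment. The smooth muscle markers Acta2, Myh11, Tagln, Cnn1 and Smtn were abundant in every library, with summed levels of 297395 to 622464. The IKKβ-/- mice X2385 (Ang II) and X2406 (saline) stood apart, with the fewest reads (11824041 and 11382573) and the largest summed levels of mitochondrially encoded mRNAs (6666990 and 7535800, against 740386 to 3744290 in the other 17 mice). No litter, batch or date was given, and each group had its own block of mouse numbers, so group and batch cannot be told apart.

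The promoters of 4 of the genes that differed between groups are shown first because they hold, wholly within 250 bases before the start of transcription, a match to a motif linked with genes of mitochondrial biogenesis. Sequences are RefSeq's (GRCm38.p6), written 5′ to 3′ on the coding strand. Capitals mark matches to CCGGAAG, the core bound by ETS factors such as GABP, or to GCGCATGCG, the site of nuclear respiratory factor 1, searched on both strands. The windows were chr17:35916441-35916690 (minus strand) for Mrps18b, chr14:54426659-54426908 (plus) for Mrpl52, chr6:125191950-125192199 (plus) for Mrpl51 and chr11:115403502-115403751 (plus) for Mrpl58.
Mrps18b: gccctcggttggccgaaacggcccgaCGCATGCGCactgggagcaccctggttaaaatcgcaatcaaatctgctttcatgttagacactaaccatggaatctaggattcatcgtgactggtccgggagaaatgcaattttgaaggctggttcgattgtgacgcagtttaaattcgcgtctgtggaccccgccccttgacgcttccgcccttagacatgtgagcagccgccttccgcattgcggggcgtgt
Mrpl52: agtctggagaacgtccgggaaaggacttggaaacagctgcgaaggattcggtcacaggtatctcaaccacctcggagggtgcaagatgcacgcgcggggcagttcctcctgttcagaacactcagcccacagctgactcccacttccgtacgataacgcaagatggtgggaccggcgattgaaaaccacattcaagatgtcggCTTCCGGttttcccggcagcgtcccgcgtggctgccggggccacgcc
Mrpl51: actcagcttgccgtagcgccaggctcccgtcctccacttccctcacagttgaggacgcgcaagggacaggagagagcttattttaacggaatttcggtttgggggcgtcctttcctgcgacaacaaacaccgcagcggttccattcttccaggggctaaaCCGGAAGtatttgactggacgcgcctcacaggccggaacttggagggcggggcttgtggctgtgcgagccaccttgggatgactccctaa
Mrpl58: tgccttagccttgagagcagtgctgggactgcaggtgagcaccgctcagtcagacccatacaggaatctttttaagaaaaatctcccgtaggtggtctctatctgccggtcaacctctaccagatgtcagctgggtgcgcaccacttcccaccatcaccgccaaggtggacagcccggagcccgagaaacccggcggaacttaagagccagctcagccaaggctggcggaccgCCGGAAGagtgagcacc

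A promoter entry was found for 68 of the 77 genes. In 49 of them the RefSeq start lay within 100 bases of the 5′ end of the deposited gene span. The window of Mrpl51 shown above lies inside its deposited span (chr6:125191801-125196269), so it is upstream of the RefSeq start only. In the full window of 250 bases before to 50 after the start, CCGGAAG was present in 23 of these 68 promoters (33.8%), against 17.4% of the promoters of 10987 genes tested. GCGCATGCG was present in 7 (10.3%, against 3.48%), and AAGATGGCG, the YY1 motif, in 8 (11.8%, against 3.01%). CCAAT was about as frequent as elsewhere, in 26 (38.2%, against 38.3%), and the E-box CACGTG was found in 5 (7.35%, against 9.98%). The NF-κB motif GGANTTTCC was found in a single promoter of the 68, that of Mrps21 (1.47%, against 1.23%). Matches of different motifs shared no bases in any of the 68 promoters, and the shares only describe these windows.

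Of the 13 genes that passed the threshold in a comparison, 10 had a promoter entry. CCGGAAG was in 4 of them (Mrpl51, Mrpl52, Mrpl58 and Mrps18b), GCGCATGCG in that of Mrps18b, AAGATGGCG in that of Mrpl37, and GGANTTTCC in none. The match in Mrps18b to CCGGAAG, the match in Mrpl37 and a further match in Mrpl52 lie after the start of transcription, a further match in Mrpl58 spans it, and these are not marked above.

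The 77 genes were moderately expressed. Their mean normalized counts over the 19 mice ran from 24.6 for Mrpl23 to 823 for Mrpl24, with a median of 288 (253 over all genes tested). After Mrpl23 the lowest were Mrps33 (60.5) and Mrps36 (98.4), and before Mrpl24 the highest were Mrpl12 (606) and Mrpl42 (579.7). Merged exon length joins all annotated exons of a gene and can exceed the length of the transcripts expressed. Per kilobase of it Mrps21 was highest with 597 normalized counts per kb, followed by Mrpl12 (395) and Mrpl18 (385). Mrpl23 (5.03), Mrps10 (17.6) and Mrps35 (27.4) were lowest. The merged length was 739 bases for Mrps21, against 4883 for Mrpl23, 8079 for Mrps10 and 8631 for Mrps35, so the ranks depend on it. The SD within groups, on the log2 scale, had a median of 0.21 over the 77 genes and of 0.30 over all genes tested. It ran from 0.12 to 0.53, highest for the weakly expressed Mrpl23.

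Ang II against saline in IKKβ+/+ mice asks how the aorta responds within 24 h when the kinase is present. Here 10 of the 77 genes rose and none fell: Mrps18b, Mrpl52, Mrpl54, Mrpl38, Mrpl20, Mrpl16, Mrps15, Mrpl51, Mrpl37 and Mrpl15. The level was higher with Ang II in 72 of the 77 genes (93.5%, against 50.7% of all genes tested), and the median log2 difference was 0.22, with the middle of the distribution between 0.13 and 0.33, against 0.01 over all genes. As a share of all reads the 77 genes together took 0.163% ± 0.0127 with Ang II (SD, n = 5). With saline the share was 0.152% ± 0.0131 (SD, n = 5), a difference smaller than either SD. All reads include the mitochondrially encoded mRNAs, whose summed level averaged 1724270 normalized counts with Ang II and 1001590 with saline. The share of the 77 genes without these mRNAs was not tested.

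A gene passed when its adjusted p (limma, two-sided, Benjamini-Hochberg over the 14845 genes tested) was under 0.1 and its fold change above 1.2, and differences are on the log2(normalized count + 1) scale. Among all genes tested, 4.33% passed as higher and 4.33% as lower. Before adjustment, 25 of the 77 genes had p under 0.05, all higher (32.5%, against 20.3% of all genes). In bulk RNA, fewer cells of a type and less RNA per cell cannot be told apart, and this holds for every difference given here.

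**Figure D1:**
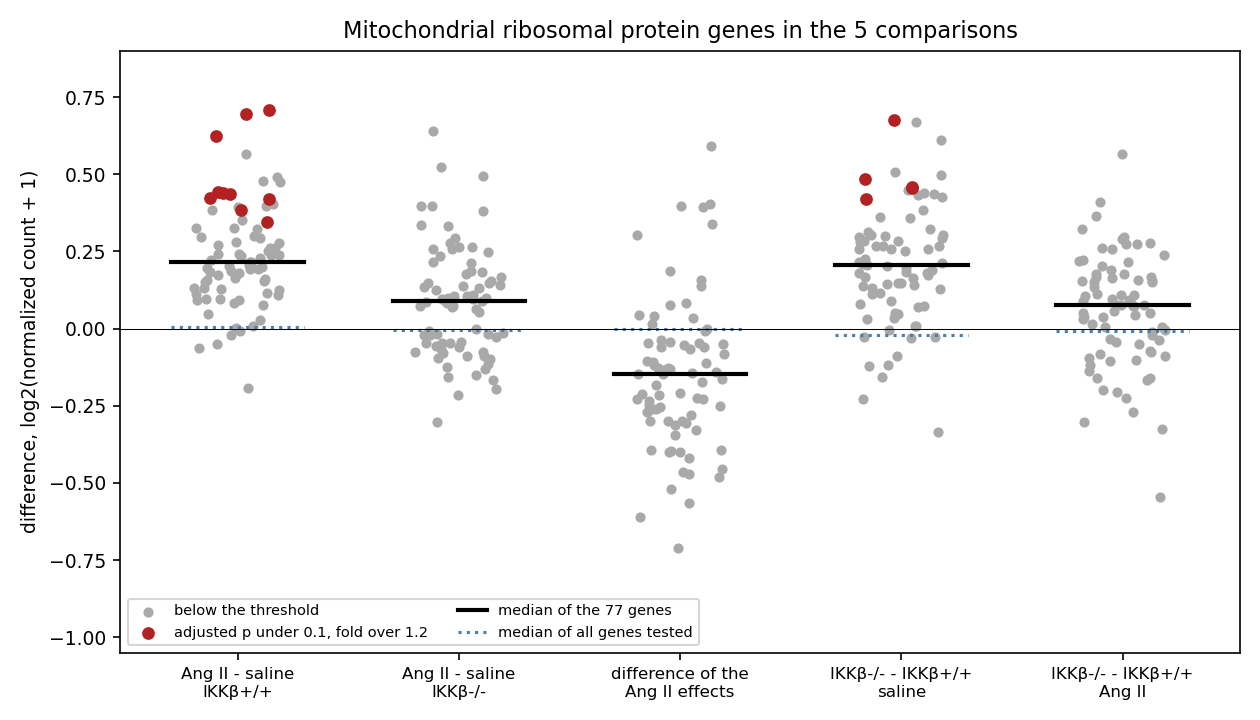
Difference between groups on the log2(normalized count + 1) scale (y axis) for each of the 77 genes (points) in the 5 comparisons (x axis); red points passed the threshold, black bars are medians of the 77 genes and dotted lines medians of the 14845 genes tested. Red points appear in 2 comparisons, 10 with Ang II in IKKβ+/+ mice and 5 with saline between the genotypes, and the medians there are 0.22 and 0.21.

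Among genes with Mrps names, Mrps18b had the largest rise of all 77. It encodes a mitochondria-specific protein, a paralogue of the bacterial-type Mrps18c and of Mrps18a (chr17:35910379-35916389, GRCm38). Its normalized counts were 89.2, 101, 105, 107 and 108 in the saline-infused IKKβ+/+ mice and 138, 145, 147, 193 and 224 in the Ang II-treated ones. Every Ang II-treated mouse lay above every saline-infused mouse (log2 difference 0.71, SE 0.18, adjusted p = 0.0320). Of its paralogues neither passed, with a log2 difference of 0.30 for Mrps18a (adjusted p = 0.202) and 0.26 for Mrps18c (adjusted p = 0.503).

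The other small subunit gene that rose was Mrps15, whose protein has a bacterial homologue that binds the small rRNA early in assembly (chr4:126046925-126055532). Its counts were 274, 298, 322, 330.0 and 348 with saline and 336, 351, 438, 484 and 527 with Ang II. The groups overlapped, with the lowest Ang II-treated mouse inside the saline range (log2 difference 0.42, SE 0.13, adjusted p = 0.0726). All 29 genes with Mrps names had a positive difference, with a median of 0.20.

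Of the 48 genes with Mrpl names 8 rose, with a median log2 difference of 0.23 over the 48. Mrpl52, a mitochondria-specific protein (chr14:54426909-54429756), gave the smallest adjusted p of the 77 genes. Its counts were 221, 226, 239.9, 271 and 302 with saline and 336, 385, 393, 422 and 511 with Ang II. The groups did not overlap (log2 difference 0.69, SE 0.16, adjusted p = 0.0180).

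Mrpl54, also mitochondria-specific (chr10:81264713-81266934), had counts of 171, 215, 228, 232 and 268 with saline and 264, 269.9, 356, 377 and 471 with Ang II. Only the lowest Ang II-treated mouse fell below the highest saline-infused one (log2 difference 0.62, SE 0.18, adjusted p = 0.0487). Mrpl51 and Mrpl37, further mitochondria-specific proteins, were separated completely. Mrpl51 had 293, 318, 327, 328 and 333 with saline and 381, 392, 432, 461 and 486 with Ang II (log2 difference 0.42, SE 0.12, adjusted p = 0.0571). Mrpl37 had 288, 290.1, 291, 293 and 319 with saline and 332, 359.7, 361, 408 and 491 with Ang II (log2 difference 0.38, SE 0.11, adjusted p = 0.0519).

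Mrpl38 belongs to the central protuberance, the crest of the large subunit that faces the small one. Its counts were 192, 206, 217, 219 and 237 with saline and 231, 265, 279, 306 and 396 with Ang II, with a narrow overlap (log2 difference 0.44, SE 0.14, adjusted p = 0.0695). It was the only one of the 7 central protuberance genes past the threshold, although all 7 differences were positive (median 0.11).

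The large subunit genes with a bacterial homologue that rose were Mrpl20, Mrpl16 and Mrpl15. Mrpl20 had 371, 399, 485, 486 and 507 with saline and 490.0, 525, 586, 676 and 803 with Ang II (log2 difference 0.44, SE 0.14, adjusted p = 0.0725). Mrpl16 had 180.4, 190.3, 198, 211 and 216 with saline, against 210.3, 264, 286, 293 and 304 with Ang II (log2 difference 0.44, SE 0.13, adjusted p = 0.0552). Mrpl15 had 281, 320.0, 331, 335 and 356 with saline, against 338, 377, 381, 493 and 495 with Ang II (log2 difference 0.35, SE 0.11, adjusted p = 0.0886). In each of these 3 genes the lowest of the 5 Ang II-treated mice lay within the saline range.

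**Figure D2:**
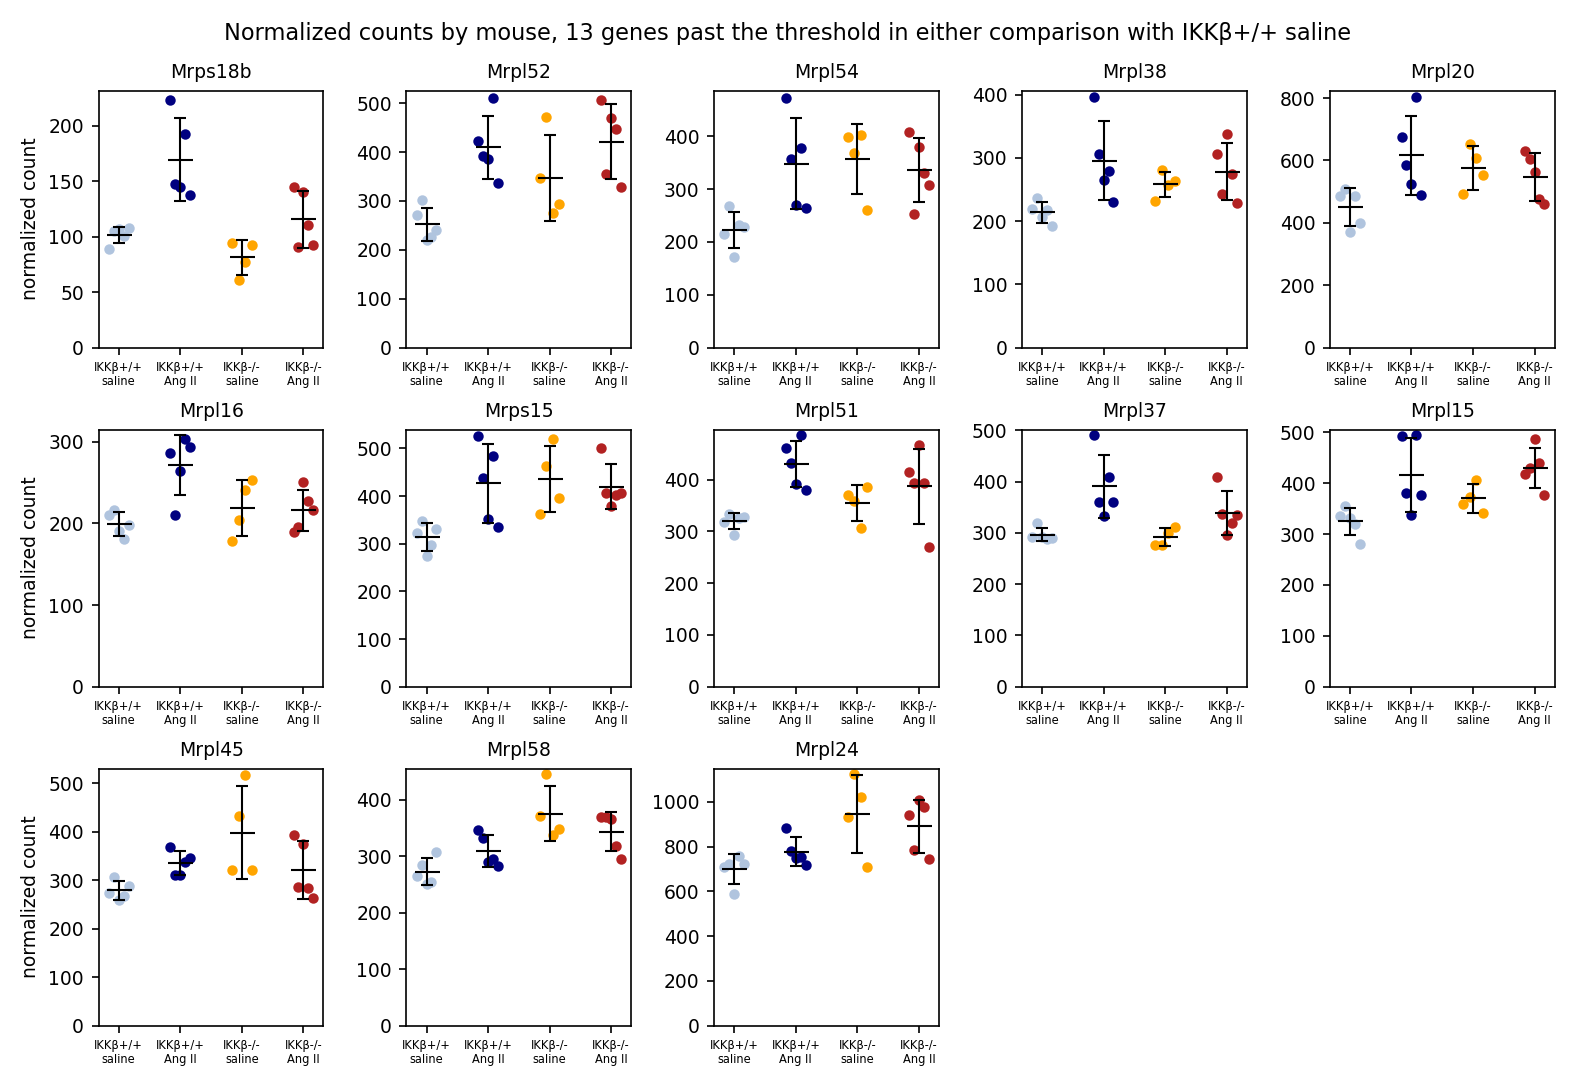
Normalized counts (y axis, from 0) of the 13 genes past the threshold with Ang II in IKKβ+/+ mice or between the genotypes with saline, in each mouse (points) of the 4 groups (x axis), with mean and SD (bars; n = 5, and 4 for IKKβ-/- saline). IKKβ+/+ saline is the lowest group mean in 11 of the 13 panels, the exceptions being Mrps18b and Mrpl37, where IKKβ-/- saline is lower. All 13 were picked as higher than IKKβ+/+ saline in a comparison, so this order is largely built in.

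Completely separated groups, Ang II higher, were found in 7 of the 77 genes, against 3.95% of all genes tested. These were Mrps18b, Mrpl52, Mrpl51, Mrpl37 and, below the threshold, Mrpl34 (log2 difference 0.47), Mrps11 (0.40) and Mrpl45 (0.26). At the other end, the lowest differences were -0.19 for Mrpl44, -0.06 for Mrpl49 and -0.05 for Mrpl3, none of which passed. Proteins of bacterial descent (4 of 46 past the threshold, median 0.24) and mitochondria-specific ones (6 of 30, median 0.19) were both represented. Just past the threshold stood Mrpl15 (adjusted p = 0.0886), and just short of it Mrpl57 and Mrps36 (each 0.108).

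The stalk, which recruits translation factors, was represented by Mrpl10, Mrpl11 and Mrpl12, and Mrpl53 was not analysed here. None passed in any comparison. Mrpl12 had 374, 385, 419.9, 453 and 515 with saline and 503, 545, 574, 677 and 726 with Ang II in IKKβ+/+ mice (log2 difference 0.49, SE 0.20, adjusted p = 0.179). The differences of its partners were 0.11 for Mrpl10 and 0.09 for Mrpl11. Around the exit of the nascent chain tunnel none of 8 genes passed with Ang II (median 0.12).

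Individual mice weighed on these counts. The summed normalized count of the 77 genes was 18422, 19978, 20215, 21000.0 and 22050.2 in the saline-infused and 21197, 22453, 23231, 25876 and 26988 in the Ang II-treated IKKβ+/+ mice. The lowest Ang II-treated mouse lay within the saline range. Of the 19 mice, saline-infused X2373 had the lowest count in 32 of the 77 genes, and Ang II-treated X2350 and X2358 had the highest in 15 and 10. Without X2350 a single gene, Mrpl52, passed, without X2358 there were 2, and without X2373, X2376 or X2378 there were 3. Over all genes tested, 428 passed without X2350, 444 without X2358 and 842 without X2373, against 1286 with every mouse. The median difference stayed between 0.17 and 0.26 when each mouse was left out in turn, and Mrpl52 passed without any of the 10 mice.

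Markers of several cell types, and mitochondrially encoded mRNAs, also differed in level in this comparison. The summed level of the 5 smooth muscle markers was 447676 to 622464 with Ang II and 320545 to 428600 with saline, with no overlap, and 2 of the 5 rose (Cnn1 and Tagln). No smooth muscle marker was at 0 in any mouse. With the smooth muscle score as a covariate none of the 77 genes passed in limma, 13 had an unadjusted p under 0.05, and the median difference was 0.26. Over all genes tested, 76 passed with this covariate and 1286 without it. The summed level of 8 mRNAs of mitochondrial DNA was 1414390 to 1855510 with Ang II and 740386 to 1156930 with saline, again without overlap although none of the 8 passed, and with their score as a covariate 13 of the 77 genes passed. The summed endothelial markers were 10798 to 21748 with Ang II and 19563 to 34012 with saline, with 1 of 5 lower (Tek), and the fibroblast markers were 23411 to 71784 and 58737 to 77860, with 1 of 5 lower (Lum). Of 3 striated muscle markers tested 1 rose (Ckm), the summed level with Ttn being 174 to 613 with Ang II and 65.4 to 184 with saline. Of 2 neuronal markers tested 1 rose (Uchl1), and the summed level of the 5 neuronal and chromaffin cell markers listed was 1009.7 to 6957 with Ang II and 701 to 953 with saline, without overlap. Of these, Th and Dbh, enzymes of catecholamine synthesis, were listed at 0 in 13 and 12 of the 19 mice. Macrophage (0 of 5), white adipocyte (0 of 4) and brown fat (0 of 4) markers did not pass. The part of the endothelial, fibroblast, striated muscle and neuronal markers in the result was not tested.

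**Figure D3:**
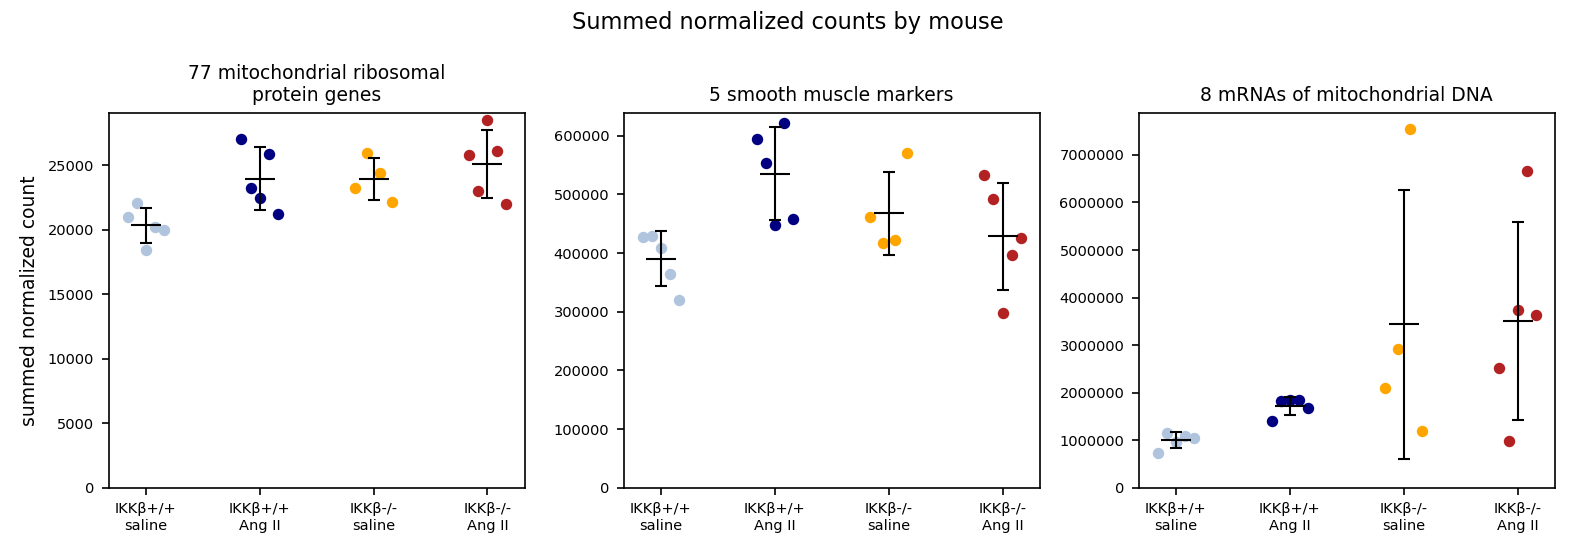
Summed normalized counts (y axes, from 0) of the 77 genes (left), of 5 smooth muscle markers (middle) and of 8 mRNAs of mitochondrial DNA (right) in each mouse (points) of the 4 groups (x axes), with mean and SD (bars; n = 5, and 4 for IKKβ-/- saline). The sum of the 77 genes is lowest on average in IKKβ+/+ saline, at 20333, and the smooth muscle markers of the 2 IKKβ+/+ groups do not overlap.

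Between the genotypes with saline, the comparison asks whether loss of the kinase alters the unstimulated aorta. Levels were higher in IKKβ-/- than in IKKβ+/+ mice for 5 genes, Mrpl54, Mrpl45, Mrps15, Mrpl58 and Mrpl24, and lower for none. Among all genes tested 3.4% passed as higher and 2.07% as lower. A positive difference was found in 67 of the 77 genes (87%, against 47.6% of all genes), with a median of 0.21 against -0.02. These differences are on the scale of normalized counts. As a share of all reads the 77 genes together took 0.1503% ± 0.0217 (SD, n = 4) in IKKβ-/- and 0.152% ± 0.0131 (SD, n = 5) in IKKβ+/+ mice. On that scale their sum was not higher. All reads include the mitochondrially encoded mRNAs, whose summed level averaged 3436510 normalized counts in IKKβ-/- and 1001590 in IKKβ+/+ mice. The share of the 77 genes without these mRNAs was not tested here either. Before adjustment, 21 genes had p under 0.05, all higher (27.3%, against 19.2%).

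Mrpl58 encodes a peptidyl-tRNA hydrolase that is built into the large subunit and releases stalled chains (chr11:115403752-115412674). It gave the smallest adjusted p in this comparison. Its counts were 337, 348, 371 and 446 in IKKβ-/- and 251, 254, 266, 285 and 308 in IKKβ+/+ mice. The genotypes did not overlap (log2 difference 0.45, SE 0.11, adjusted p = 0.0533).

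Mrpl45 and Mrpl24 lie at the exit of the nascent chain tunnel, where Mrpl45 ties the ribosome to the inner membrane. They were the 2 of 8 tunnel exit genes past the threshold here. Mrpl45 had counts of 320.4, 321, 433 and 517 in IKKβ-/- and 259, 267, 274, 288 and 307 in IKKβ+/+ mice, without overlap (log2 difference 0.48, SE 0.15, adjusted p = 0.0881). Mrpl24 had 709.7, 931, 1021 and 1123 in IKKβ-/-, against 589, 709, 722, 724 and 760.5 in IKKβ+/+ mice, where 1 IKKβ-/- mouse lay inside the IKKβ+/+ range (log2 difference 0.42, SE 0.13, adjusted p = 0.0864).

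Mrpl54 and Mrps15 were the genes past the threshold both here and with Ang II in IKKβ+/+ mice, that is 2 of the 10 and 2 of the 5 genes (20% and 40%). The comparisons share the 5 saline-infused IKKβ+/+ mice. Mrpl54 had 261, 369, 399 and 402 in IKKβ-/- mice, 1 of which lay within the IKKβ+/+ range given above (log2 difference 0.67, SE 0.19, adjusted p = 0.0675). Mrps15 had 363, 396, 464 and 519, all above the IKKβ+/+ values (log2 difference 0.46, SE 0.14, adjusted p = 0.0889).

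The remaining genes with separated genotypes were Mrps18c (log2 difference 0.67, adjusted p = 0.103), Mrps26 (0.50), Mrpl11 (0.43) and Mrps9 (0.28), which with Mrpl58, Mrpl45 and Mrps15 made 7 of 77, against 4.68% of all genes tested. Mrpl12 of the stalk had 482, 613, 715 and 852 in IKKβ-/- mice, a log2 difference of 0.61 that did not pass (adjusted p = 0.132). The lowest differences were -0.33 for Mrps18b, -0.23 for Mrpl44 and -0.16 for Mrps33. Mrps18b, which had the largest rise with Ang II, thus had lower counts in IKKβ-/- mice, 61.1, 77.5, 92.9 and 94.6, although this difference did not pass (adjusted p = 0.345).

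These 5 calls rested on few libraries. None of the 77 genes passed when X2385 and X2406 were left out, with 16 at an unadjusted p under 0.05, and the median difference was then 0.21. The summed level of the 8 mitochondrially encoded mRNAs tested was 1189840 to 7535800 in IKKβ-/- and 740386 to 1156930 in IKKβ+/+ mice, without overlap, although none of the 8 passed. With their score as a covariate none of the 77 genes passed, 5 had an unadjusted p under 0.05 and the median was 0.17. Over all genes tested, 34 passed with this covariate and 812 without it. Leaving out each mouse in turn gave 0 to 13 genes, with 0 without X2370, X2373, X2376, X2403 or X2406, 2 without X2372 or X2378, 3 without X2401, and 13 without X2409. Over all genes tested, 185 passed without X2370 and 424 without X2372.

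Markers of other cells also differed. The summed macrophage markers were 2887 to 4510.0 in IKKβ-/- and 5327 to 7389 in IKKβ+/+ mice, without overlap, with 2 of 5 lower (Adgre1 and Cd68), and none of the 5 was at 0 in any mouse. The part of the macrophage markers in the result was not tested. No marker on the other lists passed. All 4 white adipocyte markers tested had a difference below 0 (median log2 difference -2.27, 3 at an unadjusted p under 0.05), and with their score as a covariate 1 of the 77 genes passed (Mrpl24), with a median of 0.21. Over all genes tested, 347 passed with that covariate and 812 without it. Differences were also below 0 for all 5 endothelial markers (median -0.80, 3 at an unadjusted p under 0.05), the 5 fibroblast markers (median -0.67, 2 at such a p) and the 4 brown fat markers (median -0.92, none at such a p). The 3 striated muscle markers had differences above 0 (median 1.24, 1 at an unadjusted p under 0.05), with a summed level, with Ttn included, of 195 to 395 in IKKβ-/- and 65.4 to 184 in IKKβ+/+ mice, without overlap. Those of the 5 smooth muscle markers were above 0 too (median 0.24, 2 at such a p), and the 2 neuronal markers tested had a median of -0.20, with none at such a p. The part of the endothelial, fibroblast, striated muscle and neuronal markers was not tested.

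Ang II against saline in IKKβ-/- mice asks whether the response persists without the kinase in smooth muscle. None of the 77 genes passed in limma, where 9 had an unadjusted p under 0.05, all higher (11.7%, against 17.8% of all genes). The edgeR test also called none, and DESeq2 called 1. Of all genes tested 2.59% passed as higher and 2.69% as lower. The level was higher with Ang II in 46 genes (59.7%, against 49.6% of all genes) and lower in 31, with a median of 0.09.

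The largest difference was that of Mrps12, a protein of the decoding centre (chr7:28739641-28741820). Its counts were 84.7, 106, 148 and 183 with saline and 116, 196, 211, 242 and 243 with Ang II, overlapping in the lowest treated mouse (log2 difference 0.64, SE 0.23, adjusted p = 0.145). Mrps33 (0.52) and Mrps18b (0.50) followed. The lowest were Mrpl45 (-0.30), Mrps26 (-0.21) and Mrps22 (-0.20). Separated groups, Ang II higher, were found in 2 genes, Mrpl44 and Mrpl49, against 2.41% of all genes tested.

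Mrpl44, an RNase III-like protein near the tunnel exit, had 139, 146, 149 and 159.6 with saline and 168, 183, 188, 213 and 231 with Ang II in IKKβ-/- mice (log2 difference 0.40, SE 0.16, adjusted p = 0.199). In IKKβ+/+ mice it had 159, 176, 176, 178 and 179 with saline, against 102, 138, 154, 183 and 201 with Ang II. The treated IKKβ+/+ mice spread on both sides of the saline values. Mrpl49 gave the smallest adjusted p of the 77 genes in IKKβ-/- mice (log2 difference 0.33, SE 0.11, adjusted p = 0.121).

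The white adipocyte markers rose in this comparison, 4 of 4 tested, from a summed level, with Lep included, of 1020 to 4117 with saline to 2299 to 23923 with Ang II. With their score as a covariate none of the 77 genes passed in limma, 3 had an unadjusted p under 0.05, and the median was 0.04. Over all genes tested, 15 passed with this covariate and 785 without it. Of 5 endothelial markers Kdr rose, and its part in the values was not tested. With the brown fat score as a covariate the median turned to -0.01. Leaving out each mouse in turn gave medians of 0.02 to 0.14, the lowest without X2384, which had the highest count of all 19 mice in 21 of the 77 genes, and 0 to 2 genes past the threshold, with 2 without X2383. The summed brown fat markers listed were 2002 in X2384, against 148 to 223 in the other Ang II-treated IKKβ-/- mice. X2384 also had the highest summed white adipocyte markers (23923) and the lowest summed smooth muscle markers (297395) of the 19 mice.

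The Ang II differences of the genotypes share no mouse and can be set side by side. Both were positive in 42 genes, positive in IKKβ+/+ and negative in IKKβ-/- mice in 30, the reverse in 4 and negative in both in 1. Across the 77 genes, which are not independent, Pearson's r between them was 0.03 and Spearman's rho 0.05. The difference was larger in IKKβ+/+ mice for 62 genes, and larger in IKKβ-/- mice for 19.5% of the 77, against 49.8% of all genes tested. It was also larger in IKKβ+/+ mice for all 10 that rose there, whose values in IKKβ-/- mice ran from -0.09 (Mrpl54) to 0.50 (Mrps18b). Those 10 were picked for a large difference in IKKβ+/+ mice, so their order is largely built in.

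**Figure D4:**
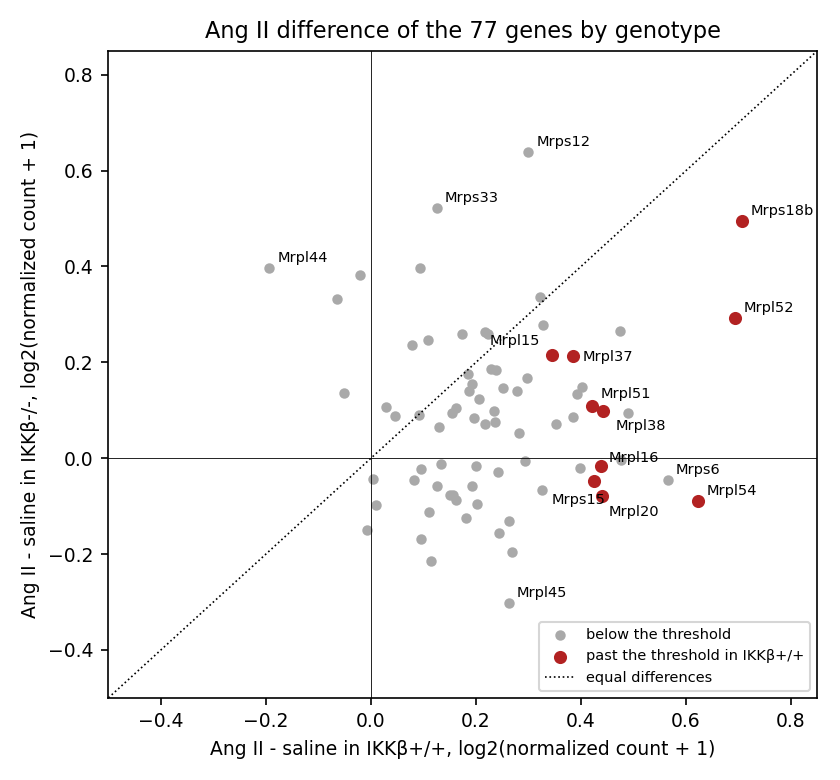
Difference between Ang II and saline on the log2(normalized count + 1) scale in IKKβ+/+ (x axis) and IKKβ-/- mice (y axis) for each of the 77 genes (points); red points passed the threshold in IKKβ+/+ mice and the dotted line marks equal differences. Of the 77 points 62 lie below the line, among them all 10 red ones, which were picked by their position on the x axis.

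The difference between the effects, IKKβ-/- minus IKKβ+/+, was tested in the same fit. None of the 77 genes passed in limma, edgeR or DESeq2. In limma 8 had an unadjusted p under 0.05 (10.4%, against 11.1% of all genes), 6 lower and 2 higher. Of all genes tested 0% passed as higher and 0% as lower in limma, while 3 genes passed in edgeR, 76 with array quality weights, 279 in DESeq2 and 79 in limma without X2356, none of them among the 77. A smaller effect in IKKβ-/- mice was thus not shown for any of the 77. The median was -0.15, with 62 genes below 0 and a median SE of 0.20. Most cytosolic ribosomal protein and oxidative phosphorylation genes were below 0 as well, as given below. This contrast uses the same saline-infused IKKβ+/+ mice as the 2 comparisons above in which genes passed. All 5 smooth muscle markers were below 0 in it (median -0.62, 2 at an unadjusted p under 0.05). All 4 white adipocyte markers tested were above 0 (median 3.59, all 4 at such a p). With these scores as covariates the medians of the 77 genes were -0.17 and -0.19.

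The most negative difference was that of Mrpl54 (log2 difference -0.71, SE 0.26, adjusted p = 0.335). Its Ang II-treated IKKβ-/- mice had 252, 307, 331, 380.4 and 408, within the range of the saline-infused IKKβ-/- mice but for the lowest and the highest. Mrps6 (-0.61) and Mrpl45 (-0.56) followed, and the highest were Mrpl44 (0.59), Mrpl14 (0.40) and Mrps33 (0.40). The span of Mrps6 overlaps that of Slc5a3, an inositol transporter gene on the same strand, so reads of these genes may be hard to assign. Such an overlap with another protein-coding gene was found for 3 of the 77 genes, Mrps6, Mrps24 and Mrps34.

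Between the genotypes with Ang II none of the 77 genes passed in limma, edgeR or DESeq2. In limma 9 had an unadjusted p under 0.05 (11.7%, against 14.3% of all genes), 6 higher and 3 lower. Of all genes tested 0.0202% passed as higher and 0.108% as lower in limma, which is 19 genes, against 521 in DESeq2 and 553 in limma without X2356. The median was 0.07, with 51 genes higher in IKKβ-/- mice (66.2%, against 49.1% of all genes). The extremes were Mrps12 (0.57), Mrpl14 (0.41) and Mrpl44 (0.36) at the upper end and Mrps18b (-0.55), Mrpl16 (-0.32) and Mrpl19 (-0.30) at the lower. Mrps18b had 90.5, 92.5, 111, 141 and 145 in the treated IKKβ-/- mice, largely below the treated IKKβ+/+ values given above, yet its adjusted p was 0.212.

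The wider machinery of mitochondrial translation was read from lists. With Ang II in IKKβ+/+ mice none passed among 5 ribosomal proteins with other names (median 0.23), 28 assembly factors and rRNA enzymes (0.07), 18 translation factors (0.09), 17 tRNA synthetases (0.00) and 16 genes of mitochondrial DNA expression (0.06). Of 25 genes of import and folding 2 rose (median 0.21), the import motor subunit Pam16 (log2 difference 1.12, from a mean count of 8.07) and the translocase subunit Timm17a (0.37). Of 9 regulators Myc rose (1.62, from 90.3 to 352 normalized counts), whereas Nrf1 (0.03), Gabpa (-0.16), Yy1 (-0.12) and Ppargc1a (-0.44) did not pass.

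In IKKβ-/- mice the ribosomal subunit gene Ptcd3 (0.32, adjusted p = 0.0899), the assembly GTPase Mtg2 (0.57) and Gfm2, a factor of ribosome recycling (0.56, adjusted p = 0.0180), rose with Ang II. The import list had none past the threshold there. Between the genotypes with saline, Malsu1, a ribosome assembly factor (0.40), Slirp, which stabilizes mitochondrial mRNAs (0.63), Pam16 (1.19) and its partner Dnajc19 (0.53) were higher in IKKβ-/- mice. Synthetases and genes of mitochondrial DNA expression had none past the threshold in any comparison.

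Cytosolic ribosomal protein genes and the nuclear genes of oxidative phosphorylation were the closest groups for comparison. With Ang II in IKKβ+/+ mice 9 of 83 cytosolic ribosomal protein genes (median 0.24) and 2 of 83 oxidative phosphorylation genes (median 0.16) rose, beside 10 of the 77 (median 0.22). Between the genotypes with saline 29 of 83 (0.36) and 18 of 83 (0.26) were higher, beside 5 of the 77 (0.21). In IKKβ-/- mice with Ang II none of either group passed, with medians of -0.03 and -0.02 beside 0.09. For the difference between the effects 76 of 83 and 69 of 83 were below 0 (medians -0.21 and -0.19), beside 62 of the 77 (-0.15). These groups were not tested against each other, and no difference is called particular to the mitochondrial ribosome.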

How the data were processed

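RNA of the suprarenal aorta of 19 mice was read from 1 table of 20408 genes, with all of its per-mouse columns used. The authors made poly(A) libraries and ran Trimmomatic 0.35 for trimming, STAR 2.7.1a for alignment to GRCm38 and for counts on Gencode genes, and DESeq2 1.30.1 for normalization (the submitters' processing notes also name RSEM). The deposited values are a signal, namely reads per gene over the size factor of the library. All (100%) low values were whole multiples of 1 read within a tolerance of 0.1 reads, and reads were recovered from them. For mouse X2359, whose size factor lay near 1, the steps could not be checked separately.

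Groups were taken from the sample titles. Genes with a value of at least 10 in at least 4 mice were tested (14845 genes, with 5563 left out). A single limma 3.58.1 fit (R 4.3.3, lmFit and eBayes with trend) on log2(value + 1) held a mean for each of the 4 groups, with two-sided tests and Benjamini-Hochberg adjustment over all tested genes. The threshold, taken from the study, was a fold change of more than 1.2 with adjusted p below 0.1. The pseudocount of 1 pulls differences of weakly expressed genes toward 0. The fit was tested on simulated data. Scores of lists, used as covariates, average the log2 values of their genes after centring each gene on its 19-mouse mean. Alternatives were another pseudocount, no filter, TMM scaling, only the groups compared, edgeR 4.0.16 and DESeq2 1.42.0 on recovered reads, other thresholds, array weights, covariates and each mouse left out. Each p-value sets a group difference against the spread between these mice, pooled over the 4 groups and moderated over all genes. It cannot separate group from batch. Promoters, from RefSeq (GRCm38.p6), were matched by symbol and position, and gene lengths were taken from Gencode vM21.

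The genes and the lists were chosen with earlier results of these data known. Named are genes past the threshold in any comparison, the 3 largest rises and falls in each, the 3 highest and lowest means, the stalk, and, of each other list, up to 4 genes past the threshold. Named after their values were seen were Mrps18a, Mrps18c, Mrpl34, Mrps11, Mrps9, Mrpl57 and 4 regulators that did not pass, the genes beyond it that had separated groups or overlapped another gene, and those highest or lowest per kb.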

Additional observations from a re-analysis of the deposited data

Results flagged for a closer look

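In 8 of 124 sets of mice of 1 group, taken over 30 named genes and the sum of the 77, a single mouse lay far from the others of its group by Dixon's criterion, which chance meets in about 1 of 20 such sets. Mrps6 accounted for 2 of these. Among Ang II-treated IKKβ+/+ mice X2350 had 269.9 normalized counts of Mrps6, with the next at 146, and among saline-infused IKKβ-/- mice X2403 had 253, with the next at 133. In the saline-infused IKKβ+/+ group X2372 was high for Mrpl14 (168, next 141) and for Mrpl37 (319, next 293), X2370 was high for Mrps36 (108, next 81.7), and X2373 was low for Mrpl44 (159, next 176). X2380 was high for Mrps15 among Ang II-treated IKKβ-/- mice (501, next 406). X2359 was low for Mrps33 among Ang II-treated IKKβ+/+ mice (47.7, next 61.9).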

How the results depend on the processing

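With Ang II in IKKβ+/+ mice 10 genes passed in limma, and 9 to 14 did under the other pseudocount, filter, scaling, tool, weight and fit choices and with the fat and mitochondrial mRNA covariates. The count was 3 at an adjusted p under 0.05 and 0 with the smooth muscle score as a covariate, and 1 to 15 with each mouse left out (1 without X2350, 15 without X2356). Mrpl52 passed in 23 of 24 alternatives, with an adjusted p of 0.00182 to 0.185, and Mrps18b in 22, with 0.00334 to 0.309.

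Between the genotypes with saline 5 genes passed. The count was 2 without a filter, 9 with only the groups compared, 10 with DESeq2, 0 at an adjusted p under 0.05, 15 with array weights, 1 with the white adipocyte score and 9 with the smooth muscle score as a covariate, 0 with the mitochondrial mRNA score, 0 without X2385 and X2406, and 0 to 13 with each mouse left out. With Ang II in IKKβ-/- mice the count of 0 became 1 with DESeq2 (Mrpl49), 2 with array weights (Mrpl49 and Mrps33) and 0 to 2 with each mouse left out, genes named after their values were seen. It stayed 0 for the difference of the effects, and was 0 to 1 between the genotypes with Ang II, with each mouse left out (1 without X2356). An adjusted p under 0.05 is a stricter criterion by construction. In the other cases the cause was not tested.

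With each mouse left out the median differences ran from 0.17 to 0.26 and from 0.02 to 0.14 with Ang II in IKKβ+/+ and IKKβ-/- mice, from -0.21 to -0.11 for the difference, and from 0.16 to 0.23 and from 0.03 to 0.11 between the genotypes with saline and with Ang II. No called gene changed sign. The smooth muscle and mitochondrial mRNA covariates and the removal of X2385 and X2406 were chosen after seeing the data. Each covariate varies with the groups, so its share cannot be told apart from theirs. No paired analysis was possible because the groups share no replicate numbers. Depth limits Mrpl23 most, at a mean of 24.6 normalized counts.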
